A study of Mus musculus with 6 samples.

Results

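Nuclear genes for the mitochondrial respiratory chain and the ATP synthase were followed across 6 RNA-seq libraries of EML cells. The members were the deposited entries whose RefSeq accession maps to a nuclear gene with a symbol of the Ndufa, Ndufb, Ndufc, Ndufs, Ndufv, Sdh, Uqcr, Cox4i, Cox5, Cox6, Cox7, Cox8 or Atp5 families, or Cyc1, without the Ndufaf genes and pseudogenes. Of 23146 entries in each table, 90 met the rule on symbols, and 84 of them had a mean of at least 1 RPKM (reads relative to transcript length and to all mapped reads) over the 6 libraries. Complex I had 36 members, complex II 4, complex III 9, complex IV 13 with Ndufa4 among them, and complex V 17. The other 5 are no subunits of a single complex and were kept apart: Cox7a2l, a factor of supercomplex assembly, and Sdhaf1, Sdhaf2, Sdhaf3 and Sdhaf4, assembly factors of complex II.

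EML cells are mouse blood progenitors, grown here with stem cell factor and labelled as bone marrow, and KAI1 is the tetraspanin encoded by Cd82. The knockdown arm had a knockdown control (n = 2, the control pair) and a KAI1 knockdown (n = 2, the knockdown pair), and the overexpression arm had 1 control library and 1 library of KAI1 overexpression. All 6 came from this line, of strain BDF1, and the labels give no further genotype or drug; the sources used here do not give how KAI1 was lowered or raised, or whether replicates were separate cultures. Any p-value therefore measures only the spread between these libraries, which may be technical.

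The respiratory chain passes electrons from NADH (complex I) or succinate (complex II) through ubiquinone to complex III, on to cytochrome c and to oxygen at complex IV. Complexes I, III and IV pump protons across the inner mitochondrial membrane, and complex V uses the return flow to make ATP. Most subunits are nuclear genes whose proteins are imported, while a few core subunits are made inside the organelle from mitochondrial DNA. Erythroid differentiation is known to build up mitochondria before red cells lose them.

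The libraries were not alike. Estimated depth ran from about 9510000 reads in knockdown control 2 to about 24900000 in the overexpression control. The labels call the cells basophils. Summed RPKM of 15 measured mast cell and basophil markers was 78374 in knockdown control 1, 16808 in knockdown control 2, 8997 and 8030.2 in the knockdown pair, 6694 in the overexpression control and 28223 in the overexpression library. The sum of 13 erythroid markers was lowest in knockdown control 1, at 201, against 6026 in knockdown control 2, 4353 and 5107 in the knockdown pair, 3443 in the overexpression control and 1104 in the overexpression library. Within that list Gata1 (87.3 RPKM) and Epor (15.6 RPKM) were highest in knockdown control 1, unlike the globin genes that lead the sum. Mcpt2 and Cma1 led the mast cell and basophil sum there. Of that list, Mcpt8 and Gzmb peaked in the overexpression library, at 3908 and 2775 RPKM against 160 and 554 RPKM in knockdown control 1. Its other markers peaked in knockdown control 1. In knockdown control 1 the median relative level was -1.27 over 5 stem and progenitor markers and -1.23 over 7 neutrophil and monocyte markers. Over 5 megakaryocyte markers it was 0.38, on log2(RPKM + 1) minus the mean of 6 libraries. Against the negative medians, Ly6a (748 RPKM) and Ctsg (1080 RPKM) lay above their means there, and the other tested markers below. Markers of stroma, macrophages and lymphocytes summed to at most 2.91, 3.22 and 9.25 RPKM in any library, with Pdgfra, C1qa, Cd3e, Pax5 and Rag1 listed at 0 throughout. Cd82 read 43.9 and 13.8 RPKM in the control pair against 7.65 and 6.91 RPKM in the knockdown pair, and 11.9 RPKM in the overexpression control against 15.2 RPKM in the overexpression library. Its log2 knockdown difference was -1.64 (SE 0.58), and limma did not call this targeted gene (adjusted p = 0.83). In bulk RNA, fewer cells of a type and less RNA per cell cannot be told apart.

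Respiratory chain genes were among the strongly read entries. The mean over 6 libraries exceeded 100 RPKM in 67 of the 84 members and 1000 RPKM in 19. The highest were Atp5k, the small e subunit of the ATP synthase membrane part, at 6331 RPKM, and Cox8a, a small subunit of complex IV, at 6166 RPKM. Next came Cox6a1 at 3680.0 RPKM, the complex III hinge protein gene Uqcrh at 3153 RPKM and Ndufa3 at 3128 RPKM. Subunits of the same complex are needed in fixed numbers, but alternative forms of a subunit can stand in for each other. RPKM differed 136-fold between the highest and lowest member in complex I, 11.9-fold in complex II and 122-fold in complex III. It differed 1096-fold in complex IV and 36.5-fold in complex V. The lowest member of complex IV was Cox6a2 (5.63 RPKM), an alternative form of the subunit that Cox6a1 encodes. That range therefore says nothing about fixed numbers. Short transcripts had the higher values: over the 84 members the log2 mean RPKM and the log2 transcript length had a Pearson's r of -0.55, a description across genes that share the same libraries.

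In complex I the lead pair by level was Ndufa3 and Ndufa2 (1122 RPKM), both small accessory subunits, and the lowest were Ndufc2 at 48.9 RPKM and Ndufs1 at 23.0 RPKM, the large iron-sulfur subunit. Complex II ran from the iron-sulfur subunit Sdhb at 606 RPKM through the membrane anchor Sdhd at 108 RPKM and the catalytic flavoprotein Sdha at 60.9 RPKM to the other anchor Sdhc at 50.9 RPKM. Complex III ran from Uqcrh and Uqcr11 (2661 RPKM) to the core protein Uqcrc2 at 61.8 RPKM and the Rieske iron-sulfur protein Uqcrfs1 at 25.9 RPKM. In complex IV, Cox7a1 at 46.2 RPKM and Cox6a2 at 5.63 RPKM, both known as isoforms of heart and skeletal muscle, were lowest. Complex V ran from Atp5k and Atp5md (2243 RPKM) to the coupling factor gene Atp5j at 274 RPKM and the stator gene Atp5pb at 173 RPKM. Of the catalytic head, Atp5b (beta) had a mean of 609 RPKM and Atp5a1 (alpha) 437 RPKM.

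At the threshold of the rule, Sdhaf3 (5.31 RPKM) and Cox6a2 were the members just inside, and Cox6b2 (0.601 RPKM), Ndufa4l2 (0.166 RPKM) and Cox4i2 (0.156 RPKM) lay just outside. The other genes under 1 RPKM were Cox8b, Cox8c and Cox7b2, each listed at 0 in all 6 libraries.

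Several subunits have more than 1 gene, and in the Cox4i, Cox6a, Cox6b, Cox7b, Cox8 and Ndufa4 families the usual form for most tissues had by far the highest level. Cox4i1, the regulatory subunit that starts complex IV assembly, stood at 1471 and 1295 RPKM in the control pair, 1734 and 1902 in the knockdown pair, 2370.2 in the overexpression control and 1757 in the overexpression. Its lung-type and hypoxia-linked partner Cox4i2 reached at most 0.413 RPKM. Cox6b1 had a mean of 1898 RPKM against 0.601 for the testis form Cox6b2, and Ndufa4 165 RPKM against 0.166 for Ndufa4l2. Cox7a2 had a mean of 699.9 RPKM, Cox7a1 46.2 RPKM and Cox7a2l 529 RPKM, while Cox7b stood at 272 RPKM and Cox8a at 6166 RPKM beside partners listed at 0. Within each of these Cox and Ndufa4 families the same copy was the highest in every library.

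**Figure D1:**
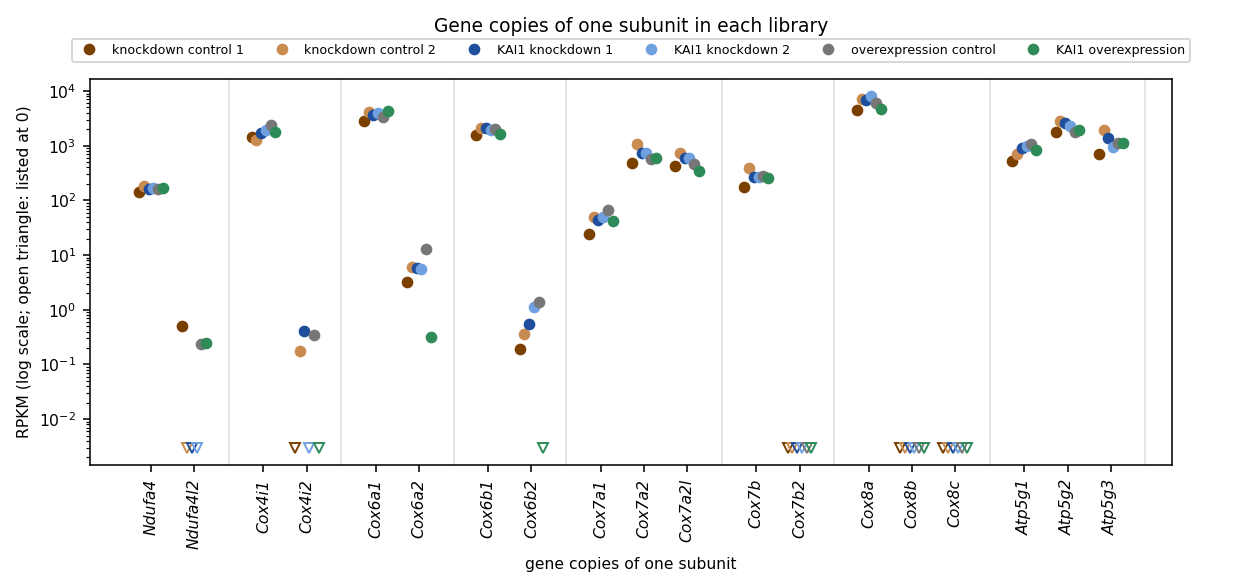
RPKM on a log axis for genes that encode alternative forms of a subunit, 1 point for each of the 6 libraries and an open triangle where a gene is listed at 0. Cox4i1, Cox6a1, Cox6b1, Cox7b and Cox8a lie far above their tissue-specific partners in all libraries, and Cox6a2 has its lowest point, 0.311 RPKM, in the KAI1 overexpression.

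The ring-forming c subunit of the ATP synthase is made from 3 genes, whose import signals differ while the mature protein is known to be the same. Atp5g2 had the highest mean at 2202 RPKM, followed by Atp5g3 at 1209 RPKM and Atp5g1 at 842 RPKM. Coding sequences taken from GENCODE M21 show how far the coding ends of these messages are alike. Over the last 228 coding bases Atp5g2 was identical to Atp5g1 at 194 bases (85.1%), Atp5g3 to Atp5g1 at 182 (79.8%) and Atp5g2 to Atp5g3 at 179 (78.5%). The rest of each message was not compared, and the assignment of reads among these genes was not tested. The first 120 of those bases are shown, and capitals mark the bases that differ from Atp5g1, 19 in Atp5g2 and 26 in Atp5g3.
Atp5g1: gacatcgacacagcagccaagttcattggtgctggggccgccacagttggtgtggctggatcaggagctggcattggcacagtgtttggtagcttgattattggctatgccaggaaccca
Atp5g2: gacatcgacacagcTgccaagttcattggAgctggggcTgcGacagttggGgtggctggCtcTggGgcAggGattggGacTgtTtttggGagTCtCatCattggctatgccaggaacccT
Atp5g3: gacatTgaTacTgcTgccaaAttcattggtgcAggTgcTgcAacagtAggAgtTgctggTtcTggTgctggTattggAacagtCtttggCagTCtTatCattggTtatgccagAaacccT

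The 3 genes did not keep the same order of libraries. Atp5g1 stood at 527 and 709 RPKM in the control pair, 926 and 976 in the knockdown pair, 1075 in the overexpression control and 839 in the overexpression. Atp5g2 stood at 1784 and 2819 RPKM in the control pair, 2617 and 2284 in the knockdown pair, 1793 in the overexpression control and 1915 in the overexpression. Atp5g3 stood at 717 and 1948 RPKM in the control pair, 1391 and 961 in the knockdown pair, 1137 in the overexpression control and 1101 in the overexpression. All of them were lowest in knockdown control 1. Atp5g2 and Atp5g3 were highest in knockdown control 2 and Atp5g1 in the overexpression control.

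Across libraries, the clearest feature of the set was knockdown control 1. It was the lowest of the 6 libraries in 52 of 84 members (61.9%), against 28.6% of the 10112 entries with a mean of 1 RPKM or more. By complex it was lowest in 15 of 36 members of complex I, 4 of 4 of complex II, 6 of 9 of complex III, 11 of 13 of complex IV and 14 of 17 of complex V. On log2(RPKM + 1) relative to each gene's mean over 6 libraries, the complex medians in knockdown control 1 were -0.13, -0.35, -0.53, -0.41 and -0.40 for complexes I to V, against 0.0010 for all entries. Knockdown control 1 was also the library with the highest mast cell and the lowest erythroid marker sums, and the part of that in the respiratory chain levels was not tested.

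In the summed values the complexes differed in how far this library stood below the rest. The sum over all entries with a mean of 1 RPKM or more was also lowest there, at 996748 RPKM against 1177394 to 1266080 RPKM. The complex sums below are not scaled to that total. Complex V summed to 15602 RPKM in knockdown control 1 and to between 21153 and 26872 RPKM in the other 5 libraries. Complex IV summed to 12892 RPKM there against 15809 to 19421 RPKM, and complex III to 7823 against 10605 to 12327 RPKM. Complex II summed to 655 RPKM against 786 to 924 RPKM. The range of complex I was narrower, at 14425 RPKM against 15221 to 16781 RPKM.

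Subunits of the peripheral arm of complex I, the part that takes electrons from NADH, were read 1 by 1. Ndufs3 stood at 131 RPKM in knockdown control 1 and between 179 and 229 RPKM elsewhere, and Ndufs1 at 15.8 against 20.8 to 29.3 RPKM. Both were lowest in knockdown control 1, as were Ndufs7, Ndufs8 and Ndufv2. For Ndufv2 the margin was narrow, at 98.7 RPKM against 99.7 RPKM in the overexpression. The flavoprotein gene Ndufv1 was lowest in knockdown control 2.

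**Figure D2:**
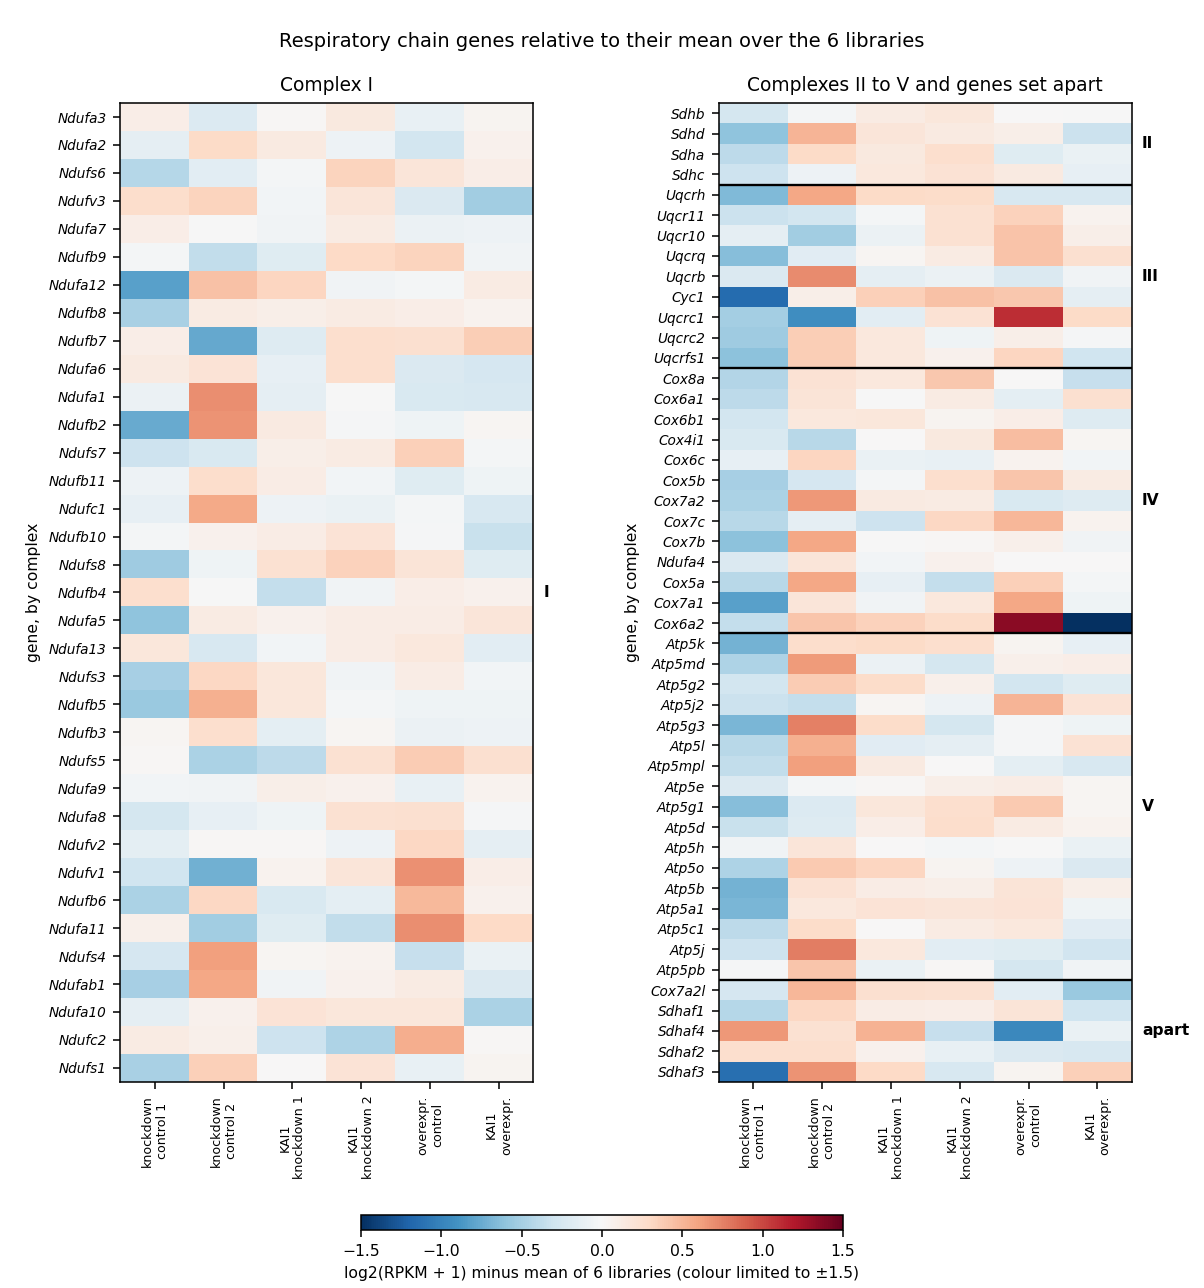
Each row is a gene, with 1 member of complex I not drawn, and each column a library; colour gives log2(RPKM + 1) minus the gene's mean over the 6 libraries, limited to 1.5 in either direction. Knockdown control 1 is blue in most rows of complexes II to V and paler in complex I, and knockdown control 2 is red in many rows, being the highest library in 39 of 84 members.

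The scale matters for the size of this gap. When each library was rescaled to 1 common sum over entries other than small RNAs, the median of all entries in knockdown control 1 moved up by 0.19 and the share of members lowest there was 33.3%, against 18.2% of all entries. The relative medians were then 0.072, -0.15, -0.33, -0.21 and -0.19 for complexes I to V, against 0.18 for all entries. By complex, knockdown control 1 was then lowest in 12 of 36, 1 of 4, 5 of 9, 3 of 13 and 6 of 17 members, so the counts of complexes II, IV and V fell most. With quantile normalization the shares were 48.8% of members and 32.3% of all entries. In each of these scalings, the 5 complex medians lay below that of all entries.

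**Figure D3:**
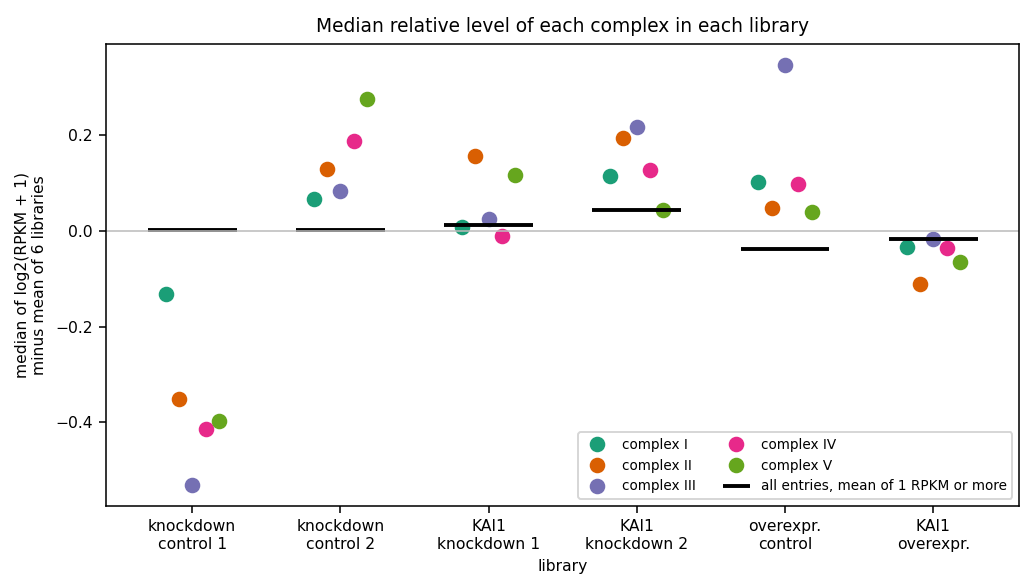
Points give, for each library on the horizontal axis, the median over the members of a complex of log2(RPKM + 1) minus the mean of 6 libraries; black bars give the same over all entries with a mean of 1 RPKM or more. Complexes II to V lie between -0.35 and -0.53 in knockdown control 1, and complex III reaches 0.35 in the overexpression control.

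Knockdown control 2 stood at the other end. It was the highest library in 39 of 84 members (46.4%), against 19.8% of all entries, and in 11 of 17 members of complex V. Its relative medians were 0.067, 0.13, 0.083, 0.19 and 0.27 for complexes I to V. In this library the members' values followed base composition: the deviation from the gene's mean and the GC content of the transcript had an r of -0.54 over the 84 members and of -0.40 over 9977 entries with a known transcript. The corresponding r over the members was 0.43 in KAI1 knockdown 2, 0.28 in the overexpression control and at most 0.10 in the other libraries. These are descriptions across genes that share a library, and the part of base composition in the differences between groups was not tested.

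**Figure D4:**
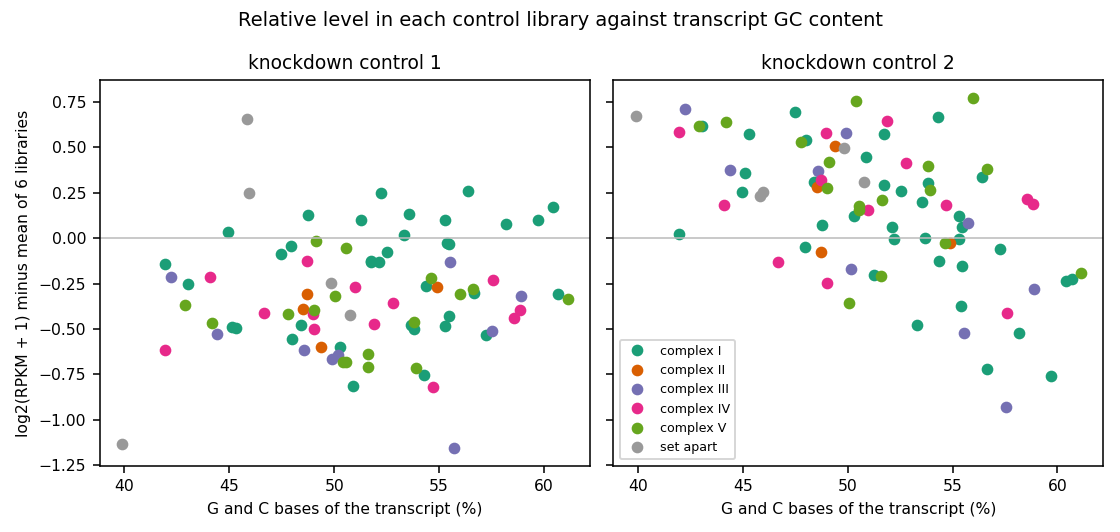
Each point is a member, with the GC content of its transcript on the horizontal axis and log2(RPKM + 1) minus the mean of 6 libraries on the vertical axis. In knockdown control 2 the points slope down (r = -0.54), and in knockdown control 1 they show little slope (r = 0.10) around a median of -0.33.

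Control and knockdown libraries overlapped in most members, and no member passed the test of the knockdown. Limma called 0 of the 84 members at an adjusted p of 0.05, with a smallest adjusted p of 0.83, and 0 members had an unadjusted p under 0.05. Over all 10113 entries tested it called 3, or 0.0297%, and 336 had an unadjusted p under 0.05. The knockdown pair was higher than the control pair, without overlap, in 23 of 84 members and lower in 5, against 21.5% and 17.0% of all entries tested. The share above, 23 of 84, was near the background, and the 5 below were Ndufv3, Ndufb4, Ndufb3, Ndufc2 and Sdhaf2. Without knockdown control 1 the counts were 29 above and 47 below, against 42.0% and 36.0% of all entries tested with that 1 control left. Without knockdown control 2 they were 68 above and 8 below, against 44.2% and 41.3%.

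The median difference between knockdown and control, on the log2(RPKM + 1) scale, was 0.11 in complex I, 0.28 in complex II, 0.39 in complex III, 0.17 in complex IV and 0.13 in complex V, against 0.028 over all entries tested. Against knockdown control 1 alone these medians were 0.18, 0.54, 0.57, 0.45 and 0.45. Against knockdown control 2 alone they were -0.040, 0.0455, 0.24, -0.12 and -0.21. All entries tested had medians of 0.0265 against knockdown control 1 and 0.031 against knockdown control 2. The direction of complexes I, IV and V thus rested on knockdown control 1. Against knockdown control 2 the median of complex II was near that of all entries, and complex III lay above it. In complex III the knockdown pair was wholly above the control pair in 5 of 9 members, in complex I in 9 of 36 with 4 below, in complex II in 2 of 4, in complex IV in 2 of 13 and in complex V in 5 of 17. Over all entries tested the shares were 21.5% above and 17.0% below.

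The member with the highest knockdown difference was Cyc1 (chromosome 15, 76173953 to 76176364 on mm9), the haem-bearing cytochrome of complex III that hands electrons to cytochrome c. It stood at 140.3 and 333 RPKM in the control pair, 401 and 428 in the knockdown pair, 417 in the overexpression control and 287 in the overexpression. Both knockdown libraries lay above both controls, but the controls differed from each other by more than control 2 differed from the knockdown. The means were 237 ± 136 (SD, n = 2) and 415 ± 18.8 RPKM (SD, n = 2), and the log2 difference of 0.94 (SE 0.49) missed the threshold of limma (adjusted p = 0.83). Without knockdown control 2 limma called Cyc1 alone among the members (log2 difference 1.56, adjusted p = 0.0286), when 1 control library remained and 10.3% of all entries were called. Without knockdown control 1 limma called 0 members and 0.158% of all entries.

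Uqcrc1 (chromosome 9, 108838661 to 108851686 on mm9), a core protein of complex III, came next. It stood at 91.2 and 68.2 RPKM in the control pair, 117 and 152 in the knockdown pair, 282 in the overexpression control and 159 in the overexpression. Here both controls were low and the overexpression control was the highest library, 4.13-fold above knockdown control 2. The log2 knockdown difference was 0.75 (SE 0.30), which missed limma's threshold (adjusted p = 0.83).

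Atp5g1 followed, with the values given above and a log2 difference of 0.64 (SE 0.30). Ndufv1, the NADH-binding flavoprotein of complex I, stood at 82.9 and 61.7 RPKM in the control pair and 106 and 116 RPKM in the knockdown pair, a log2 difference of 0.62 (SE 0.28). It reached 165 RPKM in the overexpression control and 110.0 RPKM in the overexpression. Ndufs8, which carries iron-sulfur clusters near the quinone site, stood at 216 and 301 RPKM in the control pair and 368 and 400.3 RPKM in the knockdown pair, a log2 difference of 0.59 (SE 0.30). In all 3 both knockdown libraries lay above both controls, and none reached the threshold of limma (adjusted p = 0.83).

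Ndufc2, a membrane-arm accessory subunit of complex I (chromosome 7, 104548513 to 104556310 on mm9), had the lowest knockdown difference. It stood at 52.2 and 50.1 RPKM in the control pair, 38.4 and 34.4 in the knockdown pair, 69.8 in the overexpression control and 48.4 in the overexpression. The controls lay close together, at 51.1 ± 1.45 RPKM (SD, n = 2), above the knockdown at 36.4 ± 2.78 RPKM (SD, n = 2). The log2 difference of -0.48 (SE 0.23) missed the threshold of limma (adjusted p = 0.83).

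The next lowest members were Ndufa1, Uqcrb, Sdhaf4 and Ndufb4, of which the first 3 overlapped between the pairs. Ndufa1 stood at 462 and 797 RPKM in the control pair against 448 and 489 RPKM in the knockdown pair, and Uqcrb, which helps to form the quinone pocket of complex III, at 459 and 874 against 486 and 503 RPKM. In both, knockdown control 2 was high and the other libraries lay together; without it the log2 differences of -0.37 and -0.36 became 0.018 and 0.11. Sdhaf4 stood at 29.7 and 22.0 RPKM in the control pair against 27.1 and 14.4 RPKM in the knockdown pair (-0.36), and its difference was 0.079 without KAI1 knockdown 2. Ndufb4 stood at 374 and 314 RPKM in the control pair against 246 and 304 RPKM in the knockdown pair (-0.32), with both knockdown libraries below both controls, and its difference stayed below 0 without any 1 of the 4 libraries (-0.47 to -0.17).

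**Figure D5:**
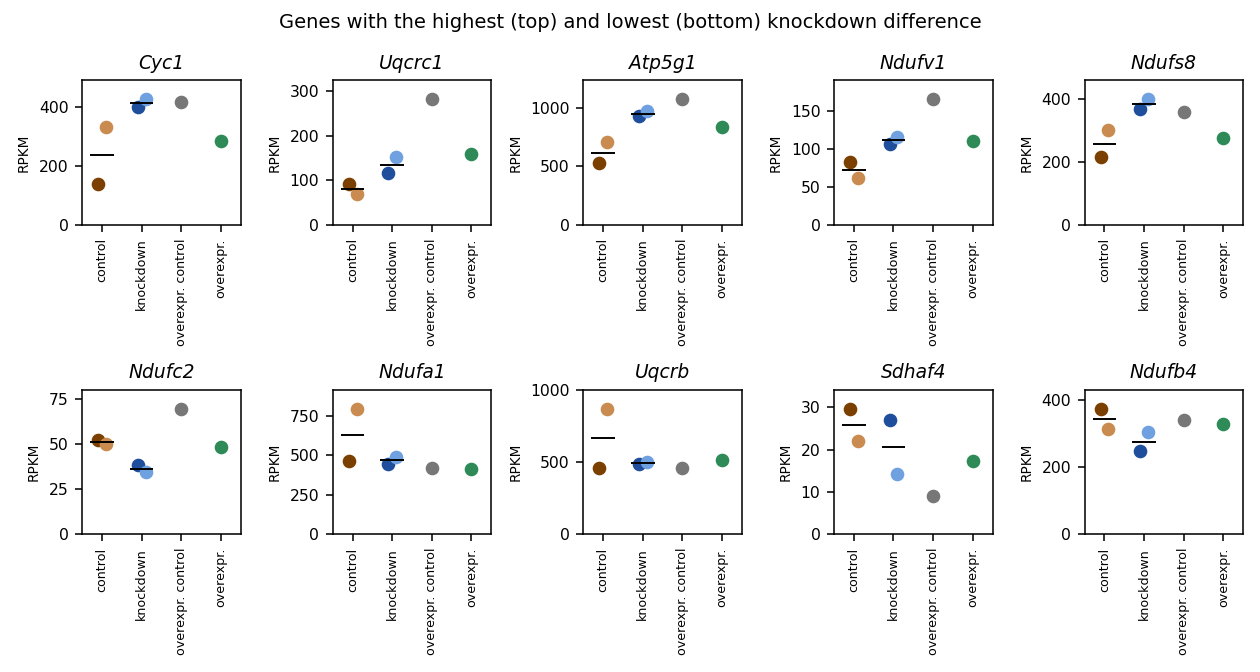
RPKM of the 5 members with the highest (top row) and the 5 with the lowest (bottom row) knockdown difference, 1 point per library, with bars at the mean of each pair; every axis starts at 0. The pair of controls lies apart in Cyc1, Ndufa1 and Uqcrb and close together in Ndufc2 (52.2 and 50.1 RPKM).

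The other catalytic subunits were divided between overlap and no overlap. Sdha stood at 45.5 and 73.2 RPKM in the control pair and 66.7 and 71.3 RPKM in the knockdown pair, and Sdhd at 68.6 and 149 against 119 and 115 RPKM. In both the knockdown lay between the controls. Sdhb (500.1 and 592 against 659 and 679 RPKM) and Sdhc (40.5 and 47.9 against 56.5 and 58.7 RPKM) lay above both controls.

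Ndufs7 was likewise above both controls, at 362 and 384 against 477 and 487 RPKM, while Ndufv2 was not, at 98.7 and 111 against 111 and 103 RPKM. Uqcrc2 (41.7 and 78.9 against 67.8 and 57.9 RPKM) and Uqcrfs1 (16.02 and 32.8 against 28.2 and 26.3 RPKM) lay between the controls. Cox5b, which binds zinc at the edge of complex IV, stood at 519 and 619 against 718 and 873 RPKM, above both controls. Its neighbour Cox5a stood at 107 and 214 against 131 and 111 RPKM, between them.

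Of the ATP synthase head, Atp5a1 stood at 266 and 476 RPKM in the control pair and 493 and 486 RPKM in the knockdown pair, above both by a small margin over control 2. Atp5b stood at 364 and 690.3 against 646 and 636 RPKM, between the controls. Atpif1, the inhibitor of the ATP synthase, is no member because of its symbol; it stood at 1173 and 2009 RPKM in the control pair, 1776 and 1950 in the knockdown pair, 1764 in the overexpression control and 1624 in the overexpression. It too was lowest in knockdown control 1.

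The knockdown difference also varied with base composition. In the 42 members richer in GC (51.6% to 61.1%) the median difference from knockdown control 2 was 0.087, and in the 42 poorer ones (39.9% to 51.3%) it was -0.29. Against knockdown control 1 the medians were 0.41 and 0.42, so the members did not split by GC in that contrast. After an adjustment of each library for GC content, chosen after the data were seen, the knockdown pair was higher than the control pair, without overlap, in 14 members and lower in 10, against 18.7% and 17.8% of all entries tested. The median knockdown differences were then 0.041, 0.215, 0.25, 0.18 and 0.069 for complexes I to V.

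In the overexpression arm, with 1 library on each side and no test, most members were slightly lower in the KAI1 overexpression than in its control. The log2 ratio was below 0 in 60 of 84 members, against 49.4% of the 9936 entries compared, with medians of -0.11 in complex I, -0.13 in complex II, -0.29 in complex III, -0.30 in complex IV and -0.10 in complex V, against 0.0057 over those entries. At 1.5-fold or more, 1 member was higher and 5 were lower, against 10.9% and 11.4% of all entries. The member that was higher was Sdhaf4, with 17.2 RPKM against 9.02 RPKM in its control. The mast cell marker sum was higher and the erythroid sum lower in the overexpression library, and the part of this in the ratios was not tested.

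The 5 lower members were Cox6a2, Uqcrc1, Ndufa10, Cox7a1 and Uqcrfs1. Uqcrc1 went from 282 to 159 RPKM, a log2 ratio of -0.82. Ndufa10, an accessory subunit of complex I, went from 57.6 to 36.5 RPKM (-0.65). Cox7a1 went from 67.0 to 42.6 RPKM (-0.64) and Uqcrfs1 from 31.6 to 20.3 RPKM (-0.62). In 3 of these, Uqcrc1, Cox7a1 and Cox6a2, the overexpression control was the highest of all 6 libraries. For Uqcrc1 the overexpression value was still above every library of the knockdown arm.

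Cox6a2 (chromosome 7, 135317460 to 135349880 on mm9) stood apart. It had 3.20 and 6.15 RPKM in the control pair, 5.86 and 5.53 in the knockdown pair, 12.7 in the overexpression control and 0.311 in the overexpression. The smallest whole read counts that give these values are 162 in the overexpression control and 3 in the overexpression, a level 40.8-fold lower with a 95% exact interval of 13.7 to 200.1 that covers counting error only. The deposited span is shared with Itgad, which stood at no more than 0.276 RPKM in any library, and with a noncoding entry listed at 0. Cox6a1, which encodes the usual form of the same subunit, was the second-highest member by overexpression ratio, at 3289 and 4289 RPKM (log2 ratio 0.38). The other high ones were Ndufa2 at 916 and 1161 RPKM (0.34), Sdhaf3 at 5.05 and 6.54 RPKM (0.32) and Ndufs4 at 55.4 and 66.3 RPKM (0.25).

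Between the arms, which share no control, the knockdown difference and the overexpression ratio had opposite signs in 54 of 84 members (64.3%), against 64.0% of 10015 entries. This share was that of the background.

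Neighbouring mitochondrial genes were read beside the members from lists chosen with earlier results known. Limma called 0 genes in each of these lists. Assembly factors of the complexes had a median knockdown difference of 0.0555 over 41 genes. Of these, 11 lay above both controls and 5 below, against 21.5% and 17.0% of all entries tested. Knockdown control 1 was the lowest library in 31.7% of the assembly factors, near the 28.6% of all entries. For the citric acid cycle enzymes, which supply NADH and succinate, that share was 84.6% of 13 genes, with a median of 0.27. It was 62.5% of 24 electron and inner membrane carriers (median 0.15), 84.2% of 76 mitochondrial ribosomal proteins (0.24) and 91.4% of 81 cytosolic ribosomal proteins (0.36). Glycolysis enzymes had a share of 61.1% of 18 and a median of 0.25. In these lists, the highest and lowest by knockdown difference were Coa3 (0.45) and Atpaf1 (-0.54) among assembly factors, Mrpl38 (0.85) and Mrps18c (-0.45) among mitochondrial ribosomal proteins, Rpl36 (1.07) and Rpl39 (-0.65) among cytosolic ones, and Eno1 (1.06) and Pfkp (-1.63) in glycolysis, none of them called. The low position of knockdown control 1 was thus seen in other gene groups as well, and the members' share of 61.9% lay between those of assembly factors and ribosomal proteins.

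Among the carriers, Cycs, the gene of cytochrome c, stood at 18.5 and 40.4 RPKM in the control pair, 21.3 and 26.7 in the knockdown pair, 29.1 in the overexpression control and 29.7 in the overexpression. The knockdown lay between the controls. Pdss1, which starts the ubiquinone side chain, stood at 0.984 and 2.48 against 2.82 and 3.29 RPKM and had the highest knockdown difference of the carriers (0.62). Slc25a3, the phosphate carrier, had the lowest (-0.21), at 132 and 217 against 158 and 135 RPKM. In the cycle, Dlst was highest (0.55), at 26.8 and 42.6 against 51.4 and 48.7 RPKM, and Sucla2 lowest (-0.062), at 20.0 and 32.2 against 24.2 and 24.5 RPKM.

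Of 15 tested regulators of mitochondrial genes, the knockdown pair was wholly above the control pair in 7 and wholly below it in 1, with a median of 0.33, against 21.5% and 17.0% of all entries tested. Knockdown control 1 was the lowest library in 8 of the 15 (53.3%). Polrmt, the mitochondrial RNA polymerase, stood at 7.03 and 6.41 RPKM in the control pair and 10.5 and 11.1 RPKM in the knockdown pair, with the controls close together (log2 difference 0.61, SE 0.21, limma adjusted p = 0.83). Twnk, the helicase of mitochondrial DNA, stood at 6.05 and 12.95 against 15.2 and 13.1 RPKM (0.61). Nrf1 (8.13 and 11.1 against 14.6 and 11.5 RPKM), Gabpb1, Lrpprc, Pprc1 and Ppargc1b were the other 5 above, with log2 differences of 0.41, 0.43, 0.44, 0.43 and 0.43. Tfb2m, a factor of mitochondrial transcription, was the 1 below, at 6.09 and 7.96 against 5.79 and 4.34 RPKM (-0.40).

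The remaining regulators overlapped: Tfam had a log2 difference of -0.17, Slirp -0.13, Yy1 -0.20, Gabpa -0.16, Tfb1m 0.33, Esrra 0.22 and Polg 0.073. Ppargc1a, the coactivator known from muscle and brown fat, reached at most 0.0755 RPKM in any library.

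Promoters of the members were read for the motifs of NRF1 and of ETS factors such as GABP, which are known to act on respiratory chain genes. The RefSeq table (GRCm38.p6, another build than the mm9 of the deposited values) gave the 250 bases before to 50 bases after the start for 70 of 84 members. Both strands were searched, and overlapping matches were allowed. The NRF1 letters (GCGC, any base, then TGCGC) were found in 19 of 70 members (27.1%), against 12.98% of 7991 genes with a mean of 1 RPKM or more and 5.19% of all 27025 genes. The ETS letters CCGGAAG were found in 20 of 70 (28.6%), against 23.0% and 9.93%. The YY1 letters (AAGATGG, then CGGC) were found in 4 of 70, against 2.20% and 0.755%, and these were Ndufs6, Ndufs7, Ndufa9 and Ndufs4, all of complex I. The search with NRF1 letters found 7 of 32 in complex I, 2 of 3 in complex II, 1 of 5 in complex III, 1 of 10 in complex IV and 6 of 15 in complex V. A match is a description of letters and no sign of binding.

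Matches of the NRF1 letters before the start are shown for up to 2 members of the highest level in each complex, to show where the stated letters lie; the 10 capitals mark the match and 10 bases stand on either side. The sequences are written along the gene's strand. The stated letters read on either strand in Atp5k, Cox6a1 and Atp5g2, and only on the opposite strand in Sdhd, Sdha, Ndufb4 and Ndufa5. The first base of the match, counted from the start with the base before it as -1, lies at -50 in Atp5k (chr5:108434430-108434459, minus strand), -162 in Cox6a1 (chr5:115349101-115349130, minus), -42 in Atp5g2 (chr15:102671070-102671099, minus), -79 in Sdhd (chr9:50603909-50603938, minus), -98 in Sdha (chr13:74350319-74350348, minus), -191 in Ndufb4 (chr16:37654540-37654569, minus) and -190 in Ndufa5 (chr6:24527697-24527726, minus).
Atp5k: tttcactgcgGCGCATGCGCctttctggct
Cox6a1: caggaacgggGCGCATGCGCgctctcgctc
Atp5g2: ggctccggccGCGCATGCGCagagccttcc
Sdhd: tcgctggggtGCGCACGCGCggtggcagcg
Sdha: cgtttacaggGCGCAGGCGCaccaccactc
Ndufb4: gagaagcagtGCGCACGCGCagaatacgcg
Ndufa5: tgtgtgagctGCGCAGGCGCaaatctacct

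NRF1 and ETS letters were found together in 5 of 70 members (7.14%), against 3.14% of the genes with a mean of 1 RPKM or more. The 250 bases before the start are shown for the members of highest level that hold both there, Cox6a1 (chr5:115348959-115349208, minus strand) and Atp5h (chr11:115419920-115420169, minus strand), the latter a stator subunit of the ATP synthase. Capitals mark the matches, and the ETS match is the one nearest to the start in both. The first NRF1 match of Cox6a1 reads on either strand, and the other matches shown in these stretches are on the strand opposite to the gene.
Cox6a1: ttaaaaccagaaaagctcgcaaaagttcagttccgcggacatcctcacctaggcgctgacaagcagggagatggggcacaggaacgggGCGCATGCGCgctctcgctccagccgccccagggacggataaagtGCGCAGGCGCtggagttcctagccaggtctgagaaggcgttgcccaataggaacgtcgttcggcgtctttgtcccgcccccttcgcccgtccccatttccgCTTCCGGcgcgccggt
Atp5h: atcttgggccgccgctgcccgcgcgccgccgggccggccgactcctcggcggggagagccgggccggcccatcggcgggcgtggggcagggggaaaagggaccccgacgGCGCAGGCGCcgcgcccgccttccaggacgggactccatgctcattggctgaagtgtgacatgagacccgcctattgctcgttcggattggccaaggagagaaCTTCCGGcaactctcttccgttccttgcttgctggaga

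Members with and without the NRF1 letters had similar medians. In knockdown control 1 the relative median was -0.39 over the 19 members with a match and -0.31 over the 51 without, and the median knockdown difference was 0.16 and 0.13. For the ETS letters the relative medians in knockdown control 1 were -0.42 over 20 members and -0.29 over 50, and the knockdown medians 0.17 and 0.12. These are descriptions, and no test of the difference was made.

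Some values rest on shared sequence. Pseudogenes named by the member's symbol with the ending -ps exist for 10 of the 84 members, such as 4 for Atp5k and 2 each for Uqcrh and Atp5l. Pseudogene copies under other names were not counted. The deposited span of 10 members overlaps another entry. The assignment of reads from such copies is not stated in the sources. The levels of these members, and of any with uncounted copies, are therefore uncertain.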

How the data were processed

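RNA of 6 libraries was measured by sequencing on the Illumina GAIIx. The authors deposited a table of RPKM per RefSeq entry for each library, per the file headers, that is values already divided by transcript length and mapped reads. The submitters' processing notes name mm9, TopHat2 2.0.9, Bowtie and Cufflinks; their settings, the strand and any pairing of replicates are not given in the sources used here. Although the design allowed for RPKM or FPKM, the headers say RPKM.

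Of 23170 rows 24 were repeats, and 22836 of 23146 entries matched a symbol in RefSeq's GRCm38.p6 table, which served for names and promoters; gene coordinates are those of the deposited mm9 tables. For the knockdown, limma 3.58.1 (R 4.3.3) was fitted with a mean-variance trend to log2(RPKM + 1), a pseudocount of 1, over 10113 entries whose mean in the 4 libraries reached 1 RPKM. Its two-sided p-values were adjusted over all of these after Benjamini and Hochberg (threshold 0.05). The fit was tested on simulated data, where recovery of changed genes was required only at a spread far smaller than the observed one. That check gives no measure of how many changes would be found at the observed spread. Fold changes on this scale understate the change of low genes. The overexpression arm has 1 library a side and no test; 1.5-fold marks a difference. Sums are of RPKM, and complex medians leave out the 5 genes kept apart.

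Depth is not stated and was estimated from whole-read steps in low values of 821 entries, with quartiles of 16100000 and 19300000 reads for knockdown control 1; read counts given are the smallest whole numbers that fit, and intervals cover counting error only. Transcript GC and length come from GENCODE M21 transcripts.

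Members named with values were the 5 highest and lowest in each arm, the 2 highest and 2 lowest by level in each complex, gene copies of a subunit, redox and catalytic subunits, and genes of the rule under 1 RPKM; the other genes in small counts (Ndufv3, Ndufb3, Sdhaf2 and those with YY1 letters) were named after their values were seen. The members and lists were chosen with earlier results of these data known. Alternatives were another pseudocount, other filters, quantile normalization, rescaling to 1 common sum, a replicate block, each library left out, complexes by symbol, values summed by symbol and, added after the data were seen, an adjustment for GC content. The values of 1 gene are not reported here.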

Additional observations from a re-analysis of the deposited data

How the results depend on the processing

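Limma called 0 members under the alternatives run, except without knockdown control 2, where it called 1 (0 to 1 over the libraries left out). The count of members with both knockdown libraries above both controls, 23, ranged from 25 to 68 over the libraries left out, and the count below both, 5, from 6 to 47. That below was 12 after rescaling to 1 common sum, and after the GC adjustment the counts were 14 above and 10 below. Of all entries tested, 42.0% lay above and 36.0% below without knockdown control 1, and 44.2% and 41.3% without knockdown control 2. After the GC adjustment these shares were 18.7% and 17.8%. They were not computed without a knockdown library or after rescaling, so the counts there have no background. The median knockdown difference ranged from -0.040 to 0.18 in complex I and from 0.0455 to 0.54 in complex II over the libraries left out. The relative median of complex I was 0.072 in knockdown control 1 after rescaling and 0.21 in knockdown control 2 after the GC adjustment. Over the libraries left out, Ndufa1 ranged from -0.77 to 0.018 and Uqcrb from -0.82 to 0.11, both highest without knockdown control 2, and Sdhaf4 from -0.79 to 0.079, highest without KAI1 knockdown 2; the cause was not tested. The overexpression ratio of Cox6a2 was -4.96 with a pseudocount of 0.1.

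Replicates in the labels share only a number. With the replicate number as a block, limma called 0 members (smallest adjusted p = 0.999) and the complex medians were as without it. A group left with 1 library is assumed to vary like the other group. Depth limits mainly the low members, such as Cox6a2 with 3 to 162 reads.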
